A study of Caenorhabditis elegans with 22 samples.

Results

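The fatty acid desaturases of Caenorhabditis elegans are 7 genes named fat-1 to fat-7, and they were taken by these names from a count table of 45461 genes. The delta-9 desaturases fat-5, fat-6 and fat-7 were set beside the other 4, fat-1 to fat-4. Counts were found for 6 of the 7, and these 6 were tested. The seventh, fat-7, was listed at 0 in all 22 libraries and has no level or fold change here.

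RNA was sequenced from whole adult worms kept on agar plates with either the solvent DMSO, as control, or 100 nM rotenone, an inhibitor of mitochondrial complex I. Ages of 1, 5, 10 and 20 days were counted from L4, the larval stage before adulthood. A group held 3 libraries at the first 3 ages and 2 libraries at day 20, so the 8 groups hold 22 libraries. The strain is not given in the sources used here, and the labels do not say whether replicates came from separate cultures. The p-values therefore measure the spread between these libraries, which may be technical.

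Desaturases are membrane enzymes that place a double bond in a fatty acyl chain, using oxygen and electrons passed on by cytochrome b5. In C. elegans, FAT-5 acts mainly on palmitic acid, while FAT-6 and FAT-7 act on stearic acid and make oleic acid. FAT-2 then makes linoleic acid from oleic acid, FAT-1 turns omega-6 into omega-3 fatty acids, and FAT-3 (delta-6) and FAT-4 (delta-5) act on the way to arachidonic and eicosapentaenoic acid. The worm can thus make polyunsaturated fatty acids that mammals must eat, and the intestine is a main site of fat synthesis.

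By position in genome build WBcel235 (Ensembl annotation), fat-5 (W06D12.3) lies on chromosome V at 17725004 to 17726818 on the plus strand. The stearic acid desaturase gene fat-6 (VZK822L.1) lies on chromosome IV at 11913692 to 11915687 on the minus strand, and fat-7 (F10D2.9) on chromosome V at 7151353 to 7153146 on the minus strand. The other 4 genes form 2 pairs on the plus strand of chromosome IV. The first pair is fat-4 (T13F2.1, 9799429 to 9802226) and fat-3 (W08D2.4, 9803023 to 9806119), with 796 bases between them. The second is fat-1 (Y67H2A.8, 13315644 to 13318811) and fat-2 (W02A2.1, 13323873 to 13326395), with 5061 bases between them. The exons of fat-5 share 28 bases with twk-42 on the opposite strand, whose counts ran from 19 to 335 against 1672 to 8240 for fat-5. The kit does not mark strand, so reads from those bases cannot be assigned to one gene.

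Library totals ran from 25769159 to 69961601 counts. The members' own counts were high, from 2655 to 16159 for fat-6 and from 12692 to 83444 for fat-2. The first DMSO library of day 10 stood apart. The median absolute log2 difference of its genes from the other libraries of its group was 0.45, against 0.0972 to 0.264 in the other 21 libraries. Some of the results that turn on it are given with and without it.

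The zero of fat-7 is a statement about the table. Of 19245 protein-coding genes in it, 310 (1.61%) were at 0 in all 22 libraries, among them pdha-1 (pyruvate dehydrogenase), cks-1 (a cell cycle regulator) and the ribosomal protein gene rpl-13A. These are genes in wide use by cells. Whether their 0 or that of fat-7 is a failed count was not tested. The genes on either side of fat-7, F10D2.8 and F10D2.10, had 0 to 2 and 62 to 533 counts. Reads that FAT-7 and its close relative FAT-6 would share were not examined here, since the reads were not used.

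With rotenone, the transcripts of the delta-9 genes fat-5 and fat-6 were higher than with DMSO at day 20, by 1.78-fold and 1.66-fold. At day 10 fat-5 was higher by 1.38-fold. The genes of the later steps, fat-2, fat-1, fat-3 and fat-4, passed the test at no age. Values are CPM, a gene's counts relative to the library's total, scaled by edgeR's trimmed mean method, and a gene was called at a Benjamini-Hochberg adjusted p under 0.05 in edgeR's quasi-likelihood test over all 16822 genes tested.

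At day 20, fat-6 had 84.6 and 91.5 CPM in the DMSO libraries and 148 and 144 CPM in the rotenone libraries. Both rotenone libraries lay above both DMSO libraries, and their distance was large beside the spread within either group. The log2 fold change was 0.73 ± 0.10 (SE; 95% interval 0.53 to 0.93; adjusted p = 0.0041), with the smallest p-value of all 16822 genes in that comparison. For fat-5 the DMSO libraries gave 51.7 and 57.6 CPM and the rotenone libraries 104 and 89.9 CPM. The groups again did not overlap. Its log2 fold change was 0.83 ± 0.14 (SE; 95% interval 0.54 to 1.12; adjusted p = 0.02), at rank 7 by p-value.

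These were 2 of the 6 tested desaturases called at day 20, where 0.0654% of all tested genes were called, 10 higher and 1 lower. The count rests on few libraries. Leaving out the first DMSO library of day 20 ended both calls (adjusted p = 0.84 for fat-5 and 0.51 for fat-6), and so did leaving out rotenone replicate 1 (0.27 and 0.10) or rotenone replicate 2 (0.071 and 0.066). With any 1 library left out, the log2 differences stayed between 0.71 and 0.92 for fat-5 and between 0.67 and 0.78 for fat-6. Over every alternative tried, adjusted p ran from 2.7e-05 to 0.84 for fat-5 and from 1.4e-10 to 0.51 for fat-6.

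The delta-12 desaturase gene fat-2, whose product takes up oleic acid, had 378 and 478 CPM with DMSO and 553 and 535 CPM with rotenone at day 20. The rotenone libraries were the higher ones, but the difference did not pass the test (log2 fold change 0.35 ± 0.13, SE; adjusted p = 0.88). Its interval, 0.07 to 0.62, lay partly within that of fat-6. For the omega-3 gene fat-1 the log2 difference was 0.16 (interval -0.15 to 0.47), for the delta-6 gene fat-3 it was 0.07 (-0.21 to 0.35), and for the delta-5 gene fat-4 it was 0.11 (-0.11 to 0.33). Libraries of the 2 treatments overlapped for fat-3 and fat-4. Whether the delta-9 genes responded more than the other desaturases was not tested as such.

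The genes fat-5, fat-6, fat-2 and fat-1 had non-overlapping groups at day 20, each of the 4 higher with rotenone. With 2 libraries a group, 18.6% of all tested genes did not overlap in that direction. The median log2 fold change of the 6 tested desaturases was 0.25, against 0.02 for all tested genes.

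At day 10, fat-5 had 101, 87.3 and 73.9 CPM with DMSO and 132, 110 and 121 CPM with rotenone. Each rotenone library lay above each DMSO library. The log2 fold change was 0.47 ± 0.11 (SE; 95% interval 0.24 to 0.70; adjusted p = 0.04). This was 1 of 6 desaturases called, where 1.36% of all tested genes were called. The call was lost without DMSO replicate 2 (adjusted p = 0.10) or 3 (0.20), and without rotenone replicate 1 (0.14) or 3 (0.15). Without the DMSO library that stood apart, the log2 fold change was 0.60 with adjusted p = 0.0017. Over all alternatives the adjusted p ran from 0.0017 to 0.63.

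For fat-6 the day 10 values were 185, 194 and 186 CPM with DMSO and 243, 214 and 236 CPM with rotenone. The groups did not overlap, yet the log2 fold change of 0.29 ± 0.08 (SE; interval 0.13 to 0.46) missed the threshold with adjusted p = 0.072. It passed in 4 of 14 alternatives, among them the fit without the DMSO library that stood apart (0.30, adjusted p = 0.023). Over all alternatives the adjusted p of fat-6 ran from 0.0015 to 0.7. Both delta-9 genes thus had non-overlapping, higher values with rotenone, which held for 4.12% of all tested genes at day 10. For fat-2, fat-1, fat-3 and fat-4 the log2 differences lay between -0.12 and 0.13, with libraries of both treatments intermixed for fat-2, fat-1 and fat-4. The delta-6 gene fat-3 had 331, 330 and 347 CPM with DMSO and 287, 316 and 326 CPM with rotenone, lower without overlap, as held for 7.46% of all tested genes, but its log2 difference of -0.12 did not pass (adjusted p = 0.83).

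At days 1 and 5 no desaturase was called by edgeR, where 0.648% and 0.88% of all tested genes were. At an unadjusted p under 0.05 there was 1 desaturase at each of these ages, fat-6 both times, and DESeq2 called 0 at day 1 and 1 (fat-6) at day 5. On day 1 fat-6 had 214, 240 and 231 CPM with DMSO and 265, 261 and 276 CPM with rotenone. On day 5 it had 289, 295 and 259 CPM with DMSO and 238, 234 and 223 CPM with rotenone. The groups did not overlap on either day, and their order was opposite: rotenone libraries were the higher ones at day 1 and the lower ones at day 5.

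The log2 fold changes of fat-6 were 0.23 ± 0.08 (SE; adjusted p = 0.18) at day 1 and -0.28 ± 0.08 (SE; adjusted p = 0.12) at day 5. For fat-5 they were 0.15 ± 0.11 (adjusted p = 0.45) and -0.20 ± 0.11 (adjusted p = 0.64). Its day 1 libraries had 67.4, 72.0 and 72.1 CPM with DMSO and 81.2, 78.5 and 74.4 CPM with rotenone. On day 5 they had 126, 135 and 109 CPM against 118, 100 and 103 CPM, which overlap. At day 5 the other 4 genes had log2 differences from -0.03 to 0, and at day 1 from -0.12 to 0.13. On day 1 fat-5, fat-6 and fat-2 were higher and fat-3 and fat-4 lower with rotenone without overlap, although the nearest libraries of fat-4 both rounded to 228 CPM. Groups without overlap were common that day, where 42.4% of all tested genes had them, and less so on day 5, at 18.1%.

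**Figure D1:**
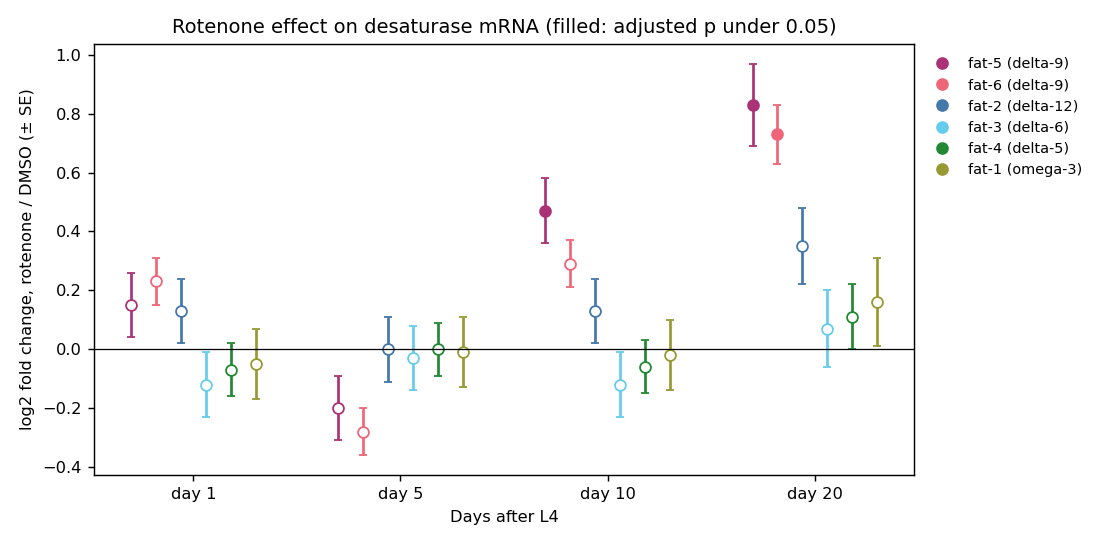
Log2 fold change of rotenone over DMSO (y axis, with SE) for the 6 tested desaturases at each day after L4 (x axis, days evenly spaced); filled points passed an adjusted p under 0.05. The filled points are fat-5 at day 10 (0.47) and fat-5 and fat-6 at day 20 (0.83 and 0.73), and the delta-9 genes lie below 0 at day 5.

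Whether the rotenone difference itself changed with age was tested as an interaction. These comparisons share libraries with each other and with those above, so they are no separate evidence. For fat-6 the difference at day 5 was lower than at day 1 by a log2 value of -0.51 ± 0.11 (SE; adjusted p = 0.043), and at day 10 it was higher than at day 5 by 0.57 ± 0.11 (SE; adjusted p = 0.024). From day 5 to day 20 it moved by 1.01 ± 0.12 (SE; adjusted p = 0.0018), the smallest p-value of all tested genes in that comparison. For fat-5 the move from day 5 to day 20 was 1.03 ± 0.18 (SE, adjusted p = 0.021). The fat-5 move from day 5 to day 10, 0.67 ± 0.16 (SE), did not pass (adjusted p = 0.068), but it passed in 5 of 20 alternatives.

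The share of all tested genes called was 0.487% for day 5 against day 1, 0.511% for day 10 against day 5 and 0.178% for day 20 against day 5. Of the 6 desaturases, 1, 1 and 2 were called. The first of these, fat-6 between days 1 and 5, lost its call without any of 11 of the 12 libraries compared, and with the length trend removed. In the day 20 against day 5 comparison, fat-6 kept its call in 18 of 19 alternatives, the exception being the fit without DMSO replicate 1 of day 20 (adjusted p = 0.078). There fat-5 kept its call in 12 of 19.

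Between day 20 and day 1 the difference of 0.51 for fat-6 (adjusted p = 0.22) and of 0.68 for fat-5 (adjusted p = 0.28) did not pass. Both passed without the day 10 DMSO library that stood apart (adjusted p = 0.018 and 0.015), which is no part of that comparison but enters the shared estimate of the spread. Over the alternatives adjusted p ran from 0.006 to 0.84 for fat-6 and from 0.002 to 0.84 for fat-5. In this comparison 0.0416% of all tested genes were called, and 0.357% for day 10 against day 1, where no desaturase was called by edgeR or DESeq2 and none had an unadjusted p under 0.05. None of fat-1 to fat-4 was called by edgeR in any interaction.

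**Figure D2:**
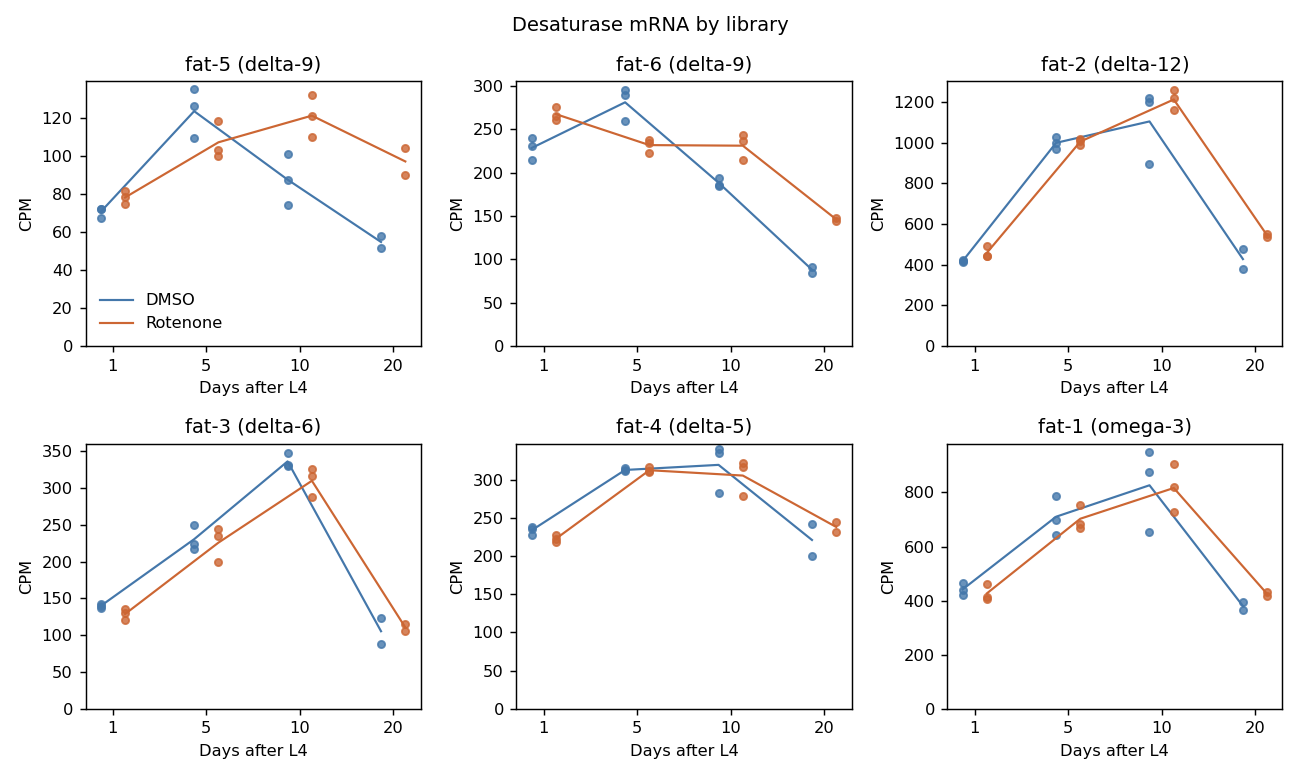
Level of each tested desaturase in CPM (y axis) in every library, by day after L4 (x axis, days evenly spaced) and treatment; points are libraries and lines join group means. The 2 rotenone libraries of fat-6 at day 20 (148 and 144) lie above the DMSO libraries (84.6 and 91.5), while at that day the points of fat-3 and fat-4 overlap between treatments.

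The desaturases also changed with age, with log2 fold changes from -1.67 to 1.26 between successive ages in DMSO worms. In DMSO worms, transcripts of all 6 tested genes rose from day 1 to day 5, and all 6 fell from day 10 to day 20. Between days 5 and 10 the delta-9 genes had already fallen, while fat-3 rose. These age steps share libraries, since day 5 and day 10 each enter 2 of them.

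From day 1 to day 5, fat-2 rose the most, from 419 ± 5.1 to 1000 ± 32 CPM (SD, n = 3 each), a log2 fold change of 1.26 ± 0.11 (SE; edgeR adjusted p = 1.1e-08). The palmitic acid desaturase gene fat-5 rose from 70.5 ± 2.7 to 123 ± 13 CPM (log2 0.81; edgeR adjusted p = 5.5e-06). The smallest rise was that of fat-6, from 228 ± 13 to 281 ± 20 CPM (log2 0.30; edgeR adjusted p = 0.0029), a call lost with no filter on low counts (adjusted p = 0.058) or with a filter at a mean of 50 counts (0.056). The rises of fat-1, fat-3 and fat-4 were 0.69, 0.72 and 0.42 on the log2 scale. All 6 were called higher, against 24.6% of all tested genes.

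From day 5 to day 10, fat-6 fell from 281 ± 20 to 188 ± 4.9 CPM (SD, n = 3 each), a log2 fold change of -0.58 ± 0.08 (SE; edgeR adjusted p = 1.2e-05). In the same step fat-5 fell to 87.4 ± 14 CPM (log2 -0.50; edgeR adjusted p = 0.0024), a call lost when the compared groups alone were fitted (adjusted p = 0.088). The delta-6 gene fat-3 went the other way, from 217, 224 and 250 CPM to 331, 330 and 347 CPM, without overlap (log2 0.55 ± 0.11, SE; edgeR adjusted p = 8e-04). Thus 2 of 6 were called lower and 1 higher, where 12.1% and 13.7% of all tested genes were. For fat-2 and fat-1 the log2 differences of 0.14 and 0.22 did not pass. They passed in 1 and 4 of 14 alternatives, with adjusted p from 0.032 to 0.73 and from 0.0079 to 0.57. Without the DMSO library that stood apart they were 0.27 and 0.36 and passed (adjusted p = 0.032 and 0.0079). Those genes had 896 and 654 CPM in that library and 1200 to 1220 and 875 to 951 CPM in the other 2.

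From day 10 to day 20, fat-3 fell the most, from 336 ± 9.2 (SD, n = 3) to 105 ± 25 CPM (SD, n = 2), with a log2 fold change of -1.67 ± 0.13 (SE; edgeR adjusted p = 3.5e-09). The fall of fat-6 to 88.1 ± 4.8 CPM was -1.10 on the log2 scale (edgeR adjusted p = 8.5e-09). The falls of fat-2, fat-1, fat-5 and fat-4 were -1.37, -1.12, -0.68 and -0.53. All 6 were called lower, against 22.3% of all tested genes. The call of fat-4 was lost without DMSO replicate 1 of day 20 (log2 -0.33, adjusted p = 0.057), and those of fat-4 and fat-5 were lost with the compared groups alone (adjusted p = 0.09 and 0.082).

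In rotenone worms fat-2, fat-1, fat-3, fat-4 and fat-5 also rose from day 1 to day 5, while fat-6 fell from 267 ± 7.8 to 232 ± 8 CPM (SD, n = 3 each; log2 -0.21 ± 0.08, SE; edgeR adjusted p = 0.026). In this step 27.3% of all tested genes were called higher and 35.4% lower. The sign of the fat-6 step turned when a trend with gene length was removed (0.01, adjusted p = 0.91). Its call was also lost with RLE scaling (adjusted p = 0.051), with no filter (0.23), and without rotenone replicate 1 or 3 of day 1 (0.08 and 0.084) or replicate 3 of day 5 (0.094). From day 5 to day 10 with rotenone, fat-6 did not move detectably (log2 0 ± 0.08, SE) and neither did fat-5 (0.18 ± 0.11, SE; edgeR adjusted p = 0.28). By edgeR fat-3 was the 1 desaturase called there (0.45, edgeR adjusted p = 0.0044), where 11.2% of all tested genes were called higher.

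From day 10 to day 20 all 6 fell in rotenone worms too, against 21.2% of all tested genes. The step of fat-6 was -0.66 (edgeR adjusted p = 5.4e-06) with rotenone and -1.10 with DMSO, and that of fat-5 was -0.32 (edgeR adjusted p = 0.043) with rotenone and -0.68 with DMSO. The fat-5 call with rotenone held in 9 of 14 alternatives. It was lost without rotenone replicate 1 (log2 -0.24, adjusted p = 0.15) or 3 (-0.32, 0.075) of day 10, without replicate 1 (-0.41, 0.055) or 2 (-0.20, 0.33) of day 20, and with a filter at a mean of 50 counts (-0.30, 0.093). The fat-4 call was lost without rotenone replicate 1 of day 20 (adjusted p = 0.10). The test of the differences between treatments did not pass (0.44 for fat-6, adjusted p = 0.64; 0.36 for fat-5, adjusted p = 1). For that comparison edgeR called 0% of all tested genes, DESeq2 called no desaturase, and 1 desaturase (fat-6) had an unadjusted p under 0.05.

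**Figure D3:**
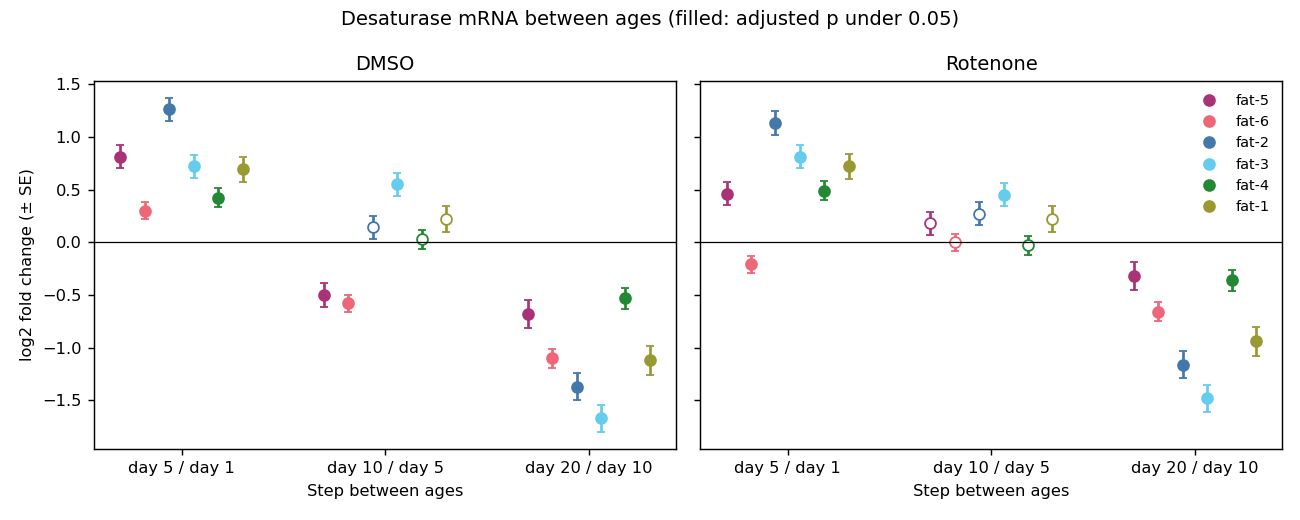
Log2 fold change (y axis, with SE) of the 6 tested desaturases between successive ages (x axis) in DMSO worms and in rotenone worms; filled points passed an adjusted p under 0.05. All 6 points of day 20 over day 10 lie below 0 in both panels, from -1.67 (fat-3) to -0.53 (fat-4) with DMSO.

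Ordered by mean level over the 8 groups, fat-6 was highest in DMSO worms of day 5 (281 CPM) and rotenone worms of day 1 (267 CPM), which overlap. Rotenone worms of days 5 and 10 and DMSO worms of day 1 followed, at 232, 231 and 228 CPM, and overlap with one another. Next came DMSO worms of day 10 (188 CPM), then rotenone worms of day 20 (146 CPM), and DMSO worms of day 20 were the lowest (88.1 CPM). The last 3 groups did not overlap with their neighbours. For fat-5, 6 groups from DMSO day 5 (123 CPM) down to rotenone day 1 (78 CPM) each overlapped the next, and DMSO worms of day 1 (70.5 CPM) and day 20 (54.6 CPM) lay below them.

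Levels of different genes were compared per kilobase of exon. In DMSO worms of day 1 the highest means were those of fat-2 (334 CPM per kb) and fat-1 (312 CPM per kb). Next were fat-6 (196), fat-4 (152), fat-3 (93.8) and fat-5 (63.8). By day 10 fat-2 stood at 880 and fat-1 at 584 CPM per kb, fat-3 had risen to 225, and fat-6 had come down to 161. The gene for the palmitic acid enzyme, fat-5, was the lowest of the 6 in DMSO worms at each age, with 79.2 CPM per kb at day 10. In rotenone worms of day 20, fat-5 was at 87.9 CPM per kb and fat-3 at 74.3.

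The summed level of fat-5 and fat-6, as a percent of the summed CPM per kb of the 6 genes, sets them beside fat-1 to fat-4. Since fat-7 was listed at 0, this share leaves out a delta-9 gene and may not give the balance of the first and later steps. It was 21.6%, 23.6% and 22.5% in the DMSO libraries of day 1 and 25.4%, 25.5% and 24.3% in the rotenone libraries. At day 10 it had come down to 13.7%, 10.9% and 9.73% with DMSO and 15.4%, 12.3% and 13.3% with rotenone, which overlap. At day 20 it was 13.8% and 12.7% with DMSO and 18.8% and 17.5% with rotenone. The rotenone libraries had the larger share at days 1 and 20 without overlap. At day 5 they had a mean of 15.2% ± 0.98 (SD, n = 3) against 17.6% ± 1.8 with DMSO. At day 1 the log2 differences of all genes went with gene length (Spearman correlation -0.536). The share was not recomputed with that trend removed. The fall from day 1 to day 10 with DMSO came with a rise of the other 4 genes' sum from 891 to 1900 CPM per kb, while the delta-9 sum went from 260 to 240.

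**Figure D4:**
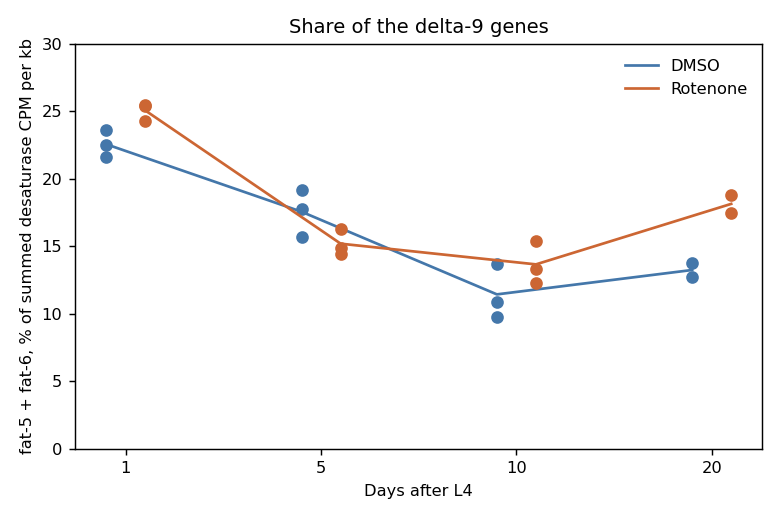
Share of fat-5 and fat-6 in the summed level of the tested desaturases, without fat-7 (y axis, percent of CPM per kb). The x axis gives the day after L4 (days evenly spaced), by treatment. Points are libraries and lines join group means. The rotenone libraries of day 20 (18.8% and 17.5%) lie above the DMSO libraries (13.8% and 12.7%), and the share is highest at day 1.

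Across the 22 libraries, the log2 levels of fat-1, fat-2, fat-3 and fat-4 moved closely together, with Pearson's r from 0.91 to 0.96 between pairs. For fat-6 the r with these 4 genes was 0.34 to 0.40, and with fat-5 it was 0.59. The fat-5 gene had r of 0.61 to 0.75 with the 4. These values describe libraries that share the same large age steps, and libraries of 1 group are close to each other. The most similar patterns in the whole table were those of eppl-1 (r = 0.941, Spearman's rho = 0.885) and clec-172 (0.939 and 0.870) for fat-6, and of cdr-2 (0.856 and 0.878) and F13H8.11 (0.851 and 0.806) for fat-5. For fat-2 they were H34I24.2 (0.980 and 0.931) and clec-190 (0.976 and 0.846), and for fat-4 fbxa-192 (0.963 and 0.890) and clec-190 (0.957 and 0.896). For fat-1 they were fat-2 (0.965 and 0.887) and kola-3 (0.961 and 0.901), and for fat-3 cyp-33A1 (0.959 and 0.942) and fat-1 (0.956 and 0.901).

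Of the genes around the desaturases in lipid metabolism, none was called with rotenone at any age. These were 43 tested genes in 5 lists: synthesis and elongation of fatty acids (15), electron donors of desaturases (4), regulators of desaturase genes (10), phosphatidylcholine synthesis (8) and oxygenation of polyunsaturated fatty acids (6). By edgeR at an unadjusted p under 0.05 there were 11, 2, 3 and 2 of the 43 at days 1, 5, 10 and 20, and DESeq2 called 0, 0, 1 and 0. The medians over the 43 were 0.05, 0.04, 0.01 and 0.07 on the log2 scale, against 0.04, -0.01, -0.05 and 0.02 for all tested genes. Beside the calls of fat-5 and fat-6 at day 20, nhr-80, a nuclear receptor that promotes delta-9 desaturase expression, had a log2 difference of 0.42 ± 0.12 (SE; adjusted p = 0.50). It was the highest of the 10 regulators, whose median was 0.07, with nhr-49 at -0.02, nhr-13 at 0.05, mdt-15 at 0.10 and sbp-1 at 0.21. The elongase gene elo-5 had 0.49 ± 0.13 (SE; adjusted p = 0.43).

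**Figure D5:**
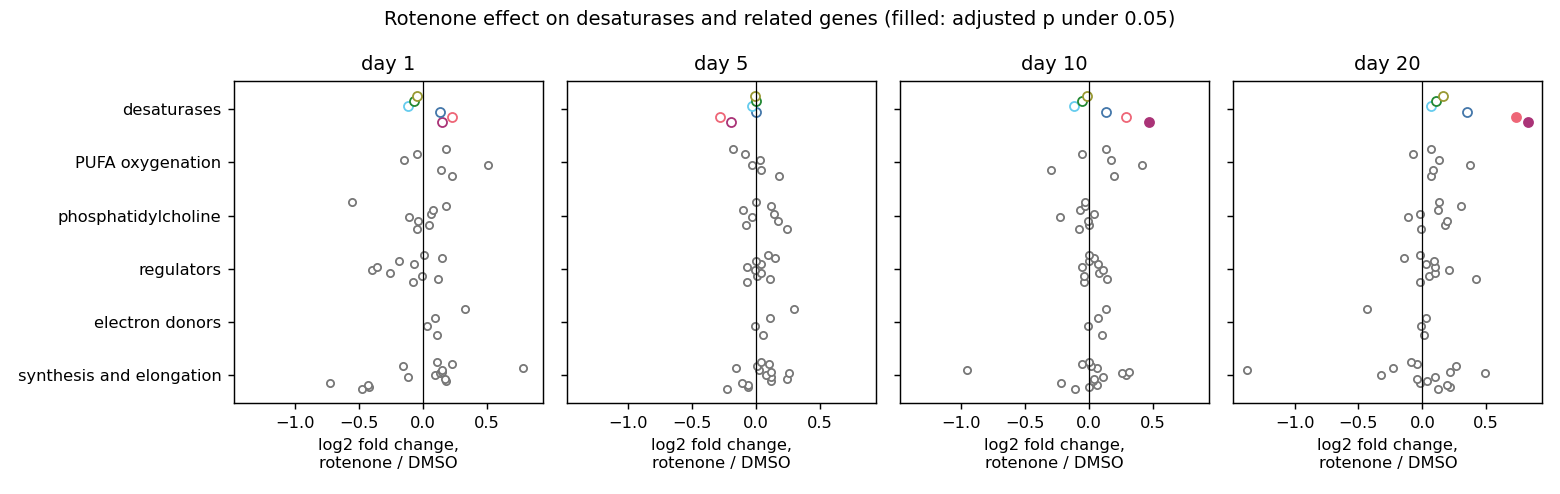
Log2 fold change of rotenone over DMSO (x axis) for each gene of the desaturases and the 5 related lists (y axis), 1 panel for each day after L4; filled points passed an adjusted p under 0.05. The filled points are desaturases (1 at day 10 and 2 at day 20), and none of the 43 other genes is filled.

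With age in DMSO worms, members of each list were called in at least 1 step. From day 1 to day 5, when all 6 desaturases rose, 9 of 15 synthesis and elongation genes fell and 1 rose, where 31.3% of all tested genes were called lower and 24.6% higher. Among them elo-2, an elongase of palmitic acid, fell from 196 ± 6.9 to 62.3 ± 4.8 CPM (SD, n = 3 each; log2 -1.66), and elo-5, needed for branched-chain fatty acids, fell from 151 ± 5.5 to 63.7 ± 4.3 CPM (log2 -1.24). Of the 8 phosphatidylcholine genes 6 fell and 1 rose, against the same shares of all tested genes. The methyltransferase gene pmt-2 went from 790 ± 16 to 143 ± 7.7 CPM (log2 -2.47), and cept-1, a choline/ethanolamine phosphotransferase gene, had a log2 change of -2.12. Of the 10 regulators 5 rose and 1 fell, with nhr-13 at 0.49 and nhr-80 at -0.59.

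From day 5 to day 10, when both delta-9 genes fell, 4 of 15 synthesis and elongation genes fell, where 12.1% of all tested genes were called lower and 13.7% higher, led by elo-6 from 207 ± 4.7 to 110 ± 9.3 CPM (log2 -0.92). Of the regulators 2 of 10 fell, nhr-13 (log2 -0.49) and nhr-66 (log2 -0.43), a share near that of all tested genes. The cytochrome b5 gene cytb-5.2, of the electron donors, rose by 0.35. From day 10 to day 20, 6 of 15 synthesis and elongation genes fell, with elo-5 at -2.50 and elo-6 at -2.12, and 4 of 8 phosphatidylcholine genes fell while 1 rose, where 22.3% of all tested genes were called lower and 23.3% higher. In that step cytb-5.2 rose again, from 98.9 ± 13 to 140 ± 6.7 CPM (SD, n = 3 and 2). Of the 4 electron donor genes, 2 were called higher, cytb-5.2 among them, and 2 were called lower. Of the regulators 3 of 10 fell, nhr-80 and nhr-13 among them (-0.58 and -0.47). Among the 6 genes of polyunsaturated fatty acid oxygenation, 3 rose and 2 fell from day 1 to day 5. Of all tested genes, 24.6% were called higher and 31.3% lower between those days. The 6 genes included emb-8, the cytochrome P450 reductase gene, at 0.38 and the cytochrome P450 gene cyp-29A3 at -1.70.

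In bulk RNA of whole worms, fewer cells of a type and less RNA per cell cannot be told apart. The 8 intestine markers (elt-2, elt-7, ges-1, act-5, ifb-2, pept-1, asp-1 and erm-1) summed to 671 to 761 CPM in the DMSO libraries of day 20 and to 775 to 827 CPM in the rotenone libraries. The 7 germline markers summed to 3060 to 3410 and 3600 to 3750 CPM, and the 5 oocyte and eggshell markers to 5470 to 5600 and 6060 to 6510 CPM. Sums of the 4 tested sperm markers were 3.89 to 4.03 and 3.43 to 3.62 CPM, lower with rotenone. Marker sums of epidermis, muscle and neurons overlapped between treatments. Of the 7 epidermis markers edgeR called 0, but 2 had an unadjusted p under 0.05, DESeq2 called 1, and the highest log2 difference was 2.44. No marker of the intestine, germline and oocyte lists was at 0, none of them was called there by edgeR or DESeq2, and none had an unadjusted p under 0.05. Their median log2 differences were 0.18, 0.19 and 0.17, beside 0.83 and 0.73 for fat-5 and fat-6. The muscle markers also had a median of 0.18, and those of sperm, epidermis and neurons were 0.02, -0.03 and 0.01. The part of any of these cells in the delta-9 result was not tested. At day 10 the sums of the intestine markers overlapped between treatments, at 1230 to 1680 and 1330 to 1390 CPM. None of the 8 was called there by edgeR or DESeq2, but 2 had an unadjusted p under 0.05. Their log2 differences ran from -0.31 to 0.31, so opposite changes can cancel in the sum.

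The intestine markers summed to 3620 to 3810 CPM in DMSO worms of day 1 and to 1390 to 1510 CPM at day 5. Of the 8 markers, 6 were called lower and 1 higher in that step, where 31.3% and 24.6% of all tested genes were. The 6 desaturases were called higher. At day 1 the intestine markers summed to 2980 to 3290 CPM in the rotenone libraries, below the DMSO libraries. There fat-6 was higher with rotenone, but neither fat-6 nor any intestine marker was called by edgeR or DESeq2. Of the 8 markers, 1 had an unadjusted p under 0.05 by edgeR, and 42.4% of all tested genes did not overlap that day. Log2 differences on day 1 also went with gene length, with a Spearman correlation of -0.536 over 16550 genes, against -0.0472 at day 5, -0.0517 at day 10 and 0.087 at day 20. With a length trend removed, the day 1 difference of fat-6 was 0.14 (adjusted p = 0.41), against 0.23 before, and that of fat-5 was 0.04 (adjusted p = 0.87), against 0.15 before. The part of length in the day 1 values of the short delta-9 genes (1104 and 1166 exonic bases for fat-5 and fat-6) was not tested further.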

How the data were processed

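The authors deposited a table of read counts per gene and a table of RPKM for the 22 libraries. Per the labels, the counts are whole, not normalized, and 2 µg of total RNA entered a TruSeq RNA kit. Per the submitters' processing notes, TopHat 1.4.1, HTSeq and build WBcel235 were named, with no role given. The deposited RPKM values imply gene lengths such as 21 bases for fat-6 and 8418 for fat-5, where the exons have 1166 and 1104, so RPKM entered no result. Exonic lengths and coordinates came from the Ensembl annotation of WBcel235.

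Counts were tested with edgeR 4.0.16 in R 4.3.3 (quasi-likelihood test, filterByExpr, TMM) in 1 fit of 8 groups with no replicate block, which kept 16822 of 45461 genes, of which 28814 had a count. P-values were adjusted by Benjamini-Hochberg over all tested genes of each of 16 comparisons, and the threshold was 0.05. The script was tested on simulated counts with known changes. These had no outlying library, no length trend between treatments and no paired replicates, so that test does not cover such features of the data. DESeq2 1.42.0, RLE scaling, a filter at a mean of 50 counts or none, the compared groups alone, a replicate block within day, removal of a lowess trend (span 0.3) on gene length, that removal with the block, and leaving out each library were the alternatives. Correlations used log2 CPM with a prior count of 2.

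The members and gene lists were chosen with earlier results of these data known. The text names every desaturase, up to 2 called genes with the smallest adjusted p per list and comparison, and the 2 genes most correlated with each desaturase; uncalled list genes are named to give a value beside a result. Of the marker lists, unc-17 was not matched. Replicate numbers come from the labels, and same-numbered DMSO and rotenone libraries deviated together by over 0.1 in every pair at day 10 alone (correlations 0.43, 0.22 and 0.16, although unequal numbers 2 and 3 gave 0.24). The block left the fat-5 and fat-6 calls of day 10 on the same side of the threshold. Replicates of a group differed by more than sampling noise (chi-square per gene 10.7 to 666).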

Additional observations from a re-analysis of the deposited data

Results flagged for a closer look

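The rotenone difference of fat-6 and fat-5 changed between ages by the test of the difference itself (edgeR interaction, log2 scale, adjusted over all tested genes). For fat-6 the change was -0.51 ± 0.11 (SE; adjusted p = 0.043) from day 1 to day 5, 0.57 ± 0.11 (SE; adjusted p = 0.024) from day 5 to day 10, and 1.01 ± 0.12 (SE; adjusted p = 0.0018) from day 5 to day 20. For fat-5 it was 1.03 ± 0.18 (SE; adjusted p = 0.021) from day 5 to day 20. These 4 values share the day 5 libraries. Over the alternatives, adjusted p ran from 0.001 to 0.18, from 1.2e-05 to 0.11, from 1.9e-12 to 0.078 and from 7.7e-05 to 0.16.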

How the results depend on the processing

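The number of desaturases called for DMSO day 5 over day 1, DMSO day 20 over day 10, rotenone day 5 over day 1 and rotenone day 20 over day 10 (6 each), and for the rotenone effect at day 10 against day 1 and day 20 against day 10 (0 each), stayed within 1.5 times under every alternative run, at 4 to 6 for the former. For rotenone against DMSO at day 1 it was 0, and 1 with the replicate block or with the compared groups alone. At day 5 it was 0, and 1 with DESeq2. At day 10 it was 1, with 2 by DESeq2 and with the length trend removed (with or without the block), 0 with a mean of at least 50 counts or the compared groups alone, and 0 to 2 with 1 library left out. At day 20 it was 2, with 1 at a mean of at least 50 counts, 0 with the compared groups alone, and 0 to 2 with 1 library left out. For DMSO day 10 over day 5 it was 3, with 2 for the compared groups alone, 4 at a mean of at least 50 counts or with the block (with or without the length trend removed), and 3 to 5 with 1 library left out. For rotenone day 10 over day 5 it was 1, with 3 at a mean of at least 50 counts or with the block, 2 by DESeq2, with length trend and block, or with the compared groups alone, and 1 to 2 with 1 library left out.

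For the rotenone effect at day 5 against day 1 the number was 1, with 0 under RLE scaling, no filter, or the length trend removed (with or without the block), and 0 to 1 with 1 library left out. At day 20 against day 1 it was 0, with 1 for no filter or DESeq2, 2 for the length trend removed (with or without the block) or the compared groups alone, and 0 to 2 with 1 library left out. At day 10 against day 5 it was 1, with 2 for no filter, DESeq2 or the length trend removed (with or without the block), 0 for the compared groups alone, and 0 to 2 with 1 library left out. At day 20 against day 5 it was 2, with 1 at a mean of at least 50 counts or the compared groups alone, and 0 to 2 with 1 library left out. The fat-6 step from day 1 to day 5 with rotenone, -0.21, became 0.01 with the length trend removed, with or without the block. The causes were not tested.

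Over all genes, rotenone calls were 109 at day 1 (22 to 5010 over the alternatives), 148 at day 5 (46 to 339), 229 at day 10 (0 to 2396) and 11 at day 20 (0 to 64). Without the first DMSO library of day 10 they were 3082, 308, 2396 and 14. With the compared groups alone edgeR called 5010, 192, 0 and 3, and DESeq2 called 306, 219, 381 and 37. With the replicate block they were 2075, 163, 286 and 20. Every library correlated best with its own number at day 1, but not at day 5 or day 10. At day 20, with 2 libraries a group, the correlations differ only in sign (0.1 and -0.1), so they cannot decide on pairing. At no age are the numbers known to pair libraries. With 1 library left in a group, that library was assumed to vary like the other groups. Removing the length trend moved the median of all genes for rotenone day 5 over day 1 by 0.16, and its other shifts and those of RLE were under 0.1. Day 20 has 2 libraries a group.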
